A study of Mus musculus with 12 samples.

Results

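The 10 genes described here encode enzymes that make NAD, the dinucleotide that carries electrons in metabolism, or that act in the kynurenine pathway from tryptophan. They were chosen by name (Qprt, Acmsd, Kmo, Haao, Kynu, Afmid, Nampt, Naprt, Nadsyn1 and Nmrk1) and each was read as the sum of its deposited transcripts. All 10 were present, as 14 transcripts, among the 13465 genes of the table. RNA was sequenced from mouse renal cortex in 4 groups of 3 libraries: WT sham, CKO sham, WT IRI and CKO IRI. Per the labels, CKO mice lack GPX3, the gene of a secreted glutathione peroxidase, in tubular epithelium only, and WT mice carry no such deletion. IRI stands for 30 min of ischemia of both kidneys and 48 h of reperfusion, a model of acute kidney injury (IRI-AKI in the labels), and sham mice are those labelled Sham. Strain, age, sex and the Cre driver of the deletion are not given in the sources used here. Nothing in the labels says that each library came from a separate mouse, and the p-values then reflect library-to-library spread only, which may be technical.

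NAD is made by several routes. In the de novo route tryptophan is opened to formylkynurenine, which AFMID turns into kynurenine, KMO hydroxylates, KYNU cleaves to 3-hydroxyanthranilate and HAAO oxidises to a semialdehyde. That semialdehyde either closes to quinolinate, which QPRT converts to nicotinate mononucleotide, or is decarboxylated by ACMSD and so leaves the route. Nicotinate enters through NAPRT, and NADSYN1 makes the last step of both routes, an amidation that gives NAD. Nicotinamide and nicotinamide riboside are salvaged by NAMPT and NMRK1. In the kidney the proximal tubule is the main site of de novo synthesis.

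The libraries summed to between 391002 and 422328 FPKM (fragments per kilobase of transcript, scaled to sequencing depth), and the read depth behind these sums is unknown. Proximal tubule markers were abundant, with 13 of 13 in the table and sums of 9854 to 11935 FPKM over the 6 sham libraries. Of 6 joint and cartilage markers, checked because the labels' extraction text describes joint tissue, only Comp was in the table, at 0.16 to 1.63 FPKM. Gpx3 itself lay between 4476 and 5664 FPKM in WT sham and between 2501 and 3299 FPKM in CKO sham. Its RNA was thus lower in CKO sham but not absent. After IRI it did not separate the genotype labels, with 1075 to 3568 FPKM in libraries labelled WT and 2779 to 3723 FPKM in those labelled CKO, so genotype after IRI is used below as labelled. CKO sham 1 and WT IRI 49 often stood apart from the other libraries of their groups.

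In WT sham kidneys Haao and Acmsd were the most abundant of the 10 genes, at 135 ± 4.86 and 106 ± 9.94 FPKM (SD, n = 3 here and for each group mean below). Nmrk1 (57.7 ± 2.43 FPKM), Qprt (48.1 ± 3.83) and Kmo (43.5 ± 1.90) followed, and the libraries of Qprt and Kmo overlapped in level. Nampt (28.7 ± 1.42 FPKM), Naprt (26.3 ± 0.78) and Kynu (25.8 ± 1.74) formed a close group in which Kynu overlapped both others. Afmid (18.8 ± 14.0 FPKM) spread over the levels of several other genes, and Nadsyn1 was lowest, at 8.31 ± 1.91 FPKM. The order of the 10 means was the same in CKO sham.

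In WT kidneys the RNA of several kynurenine pathway genes was lower after ischemia-reperfusion. Kmo, Kynu, Haao and Acmsd went to between 27.1% and 43.8% of their WT sham means, and Nampt to 72.7%. These 5 of 10 genes fell at a limma adjusted p under 0.05, and none rose. Over all 12469 tested genes 11.8% fell and 23.5% rose, 35.4% in all. The 5 genes did not overlap between the groups, as was so for 19.5% of tested genes downwards and 35.2% upwards. The median log2 change of the 10 was -0.60, beside 0.12 over all tested genes. Quantile normalization and trimmed-mean scaling moved that overall median to -0.03 and -0.01, with 2011 genes lower and 2088 higher and with 2114 lower and 2123 higher, in place of 1472 and 2936. The count of falls was 5 with quantile normalization and 7 with trimmed-mean scaling. It was 3 without WT IRI 24, where Haao (adjusted p 0.0841) and Nampt (0.120) did not pass, and 7 without WT IRI 49.

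The same injury in CKO kidneys lowered Kmo, to 62.1% of its CKO sham mean, and called no other member by limma at an adjusted p under 0.05. That is 1 of 10, beside 2.02% of tested genes that fell and 6.6% that rose, 8.62% in all. Qprt, Kmo, Haao, Naprt, Nadsyn1 and Nmrk1 lay below sham without overlap and Nampt above it, as did 10.1% and 21.4% of tested genes. The members' median log2 change was -0.34, beside 0.08 over all tested genes. Kynu, Haao and Acmsd stood at 50.4%, 52.8% and 65.8% of their CKO sham means. Without CKO sham 1, in which Kmo, Kynu and Acmsd were low, all 4 of these genes fell (limma adjusted p 0.0425 for Haao, 0.0168 for Kynu and 0.0182 for Acmsd). The Kmo call was lost when only these groups were fitted (limma adjusted p 0.146) and without any one of the other 5 CKO libraries (0.0595 to 0.164). Haao, just above the threshold in the main fit (limma adjusted p 0.0502), passed with a filter of 5 FPKM (0.0493) and with trimmed-mean scaling (0.0428). It also passed without CKO IRI 15 (0.0116), and Kynu passed without CKO IRI 29 (0.0427). Kmo was therefore not clearly set apart from these genes in CKO.

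**Figure D1:**
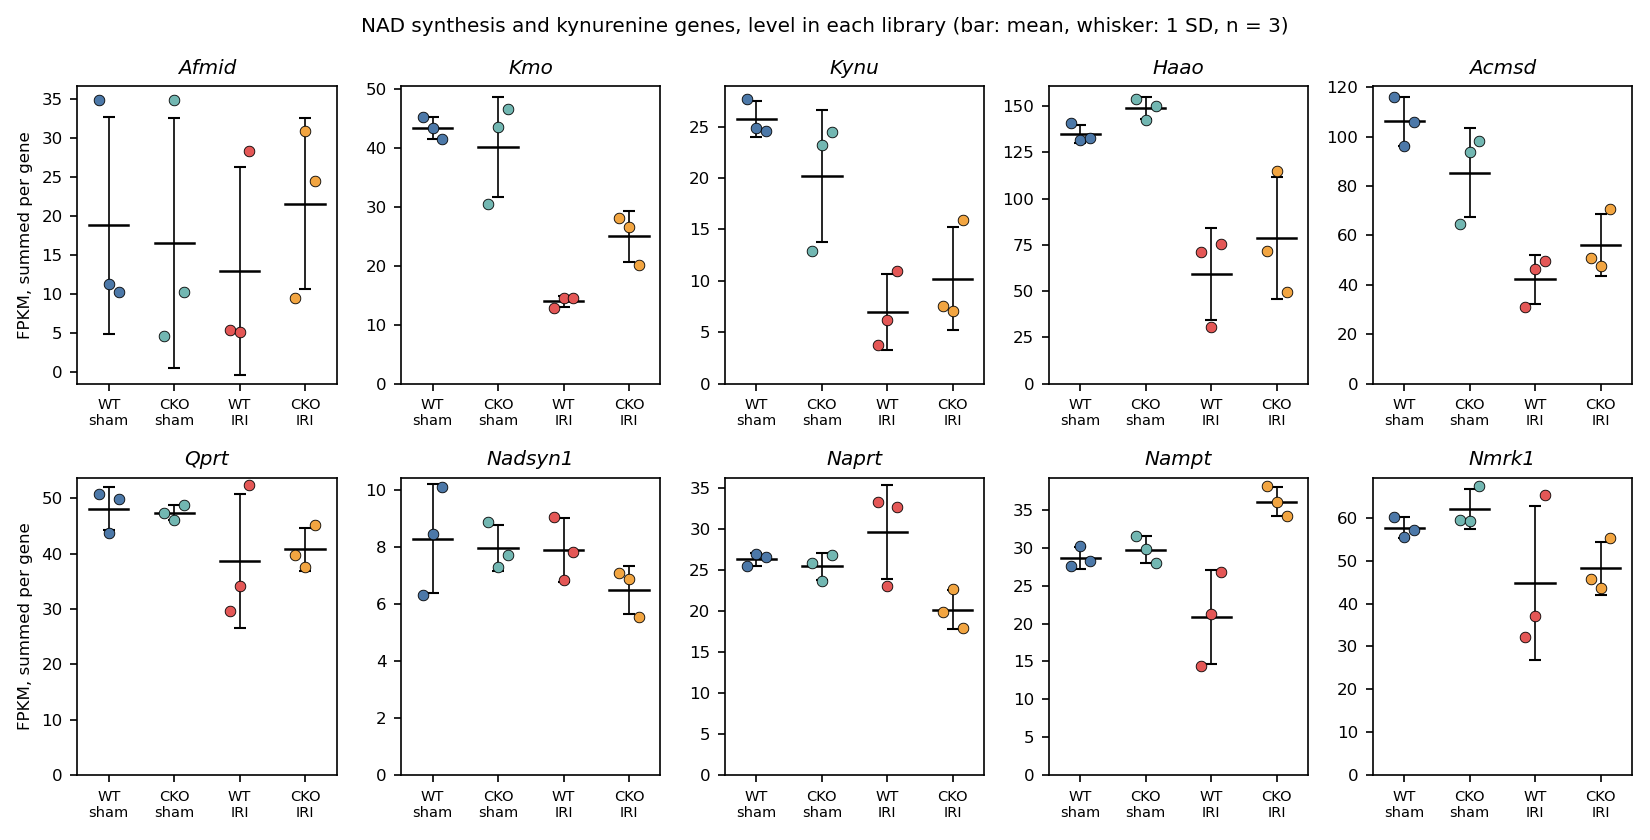
Level of each gene in FPKM (vertical axes, summed over transcripts) in the 12 libraries, by group; points are libraries, bars means and whiskers 1 SD (n = 3). Kmo in WT IRI lies between 12.9 and 14.6 FPKM, below every other library, and Nampt in CKO IRI lies between 34.2 and 38.1 FPKM, above every other library.

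Kmo, the kynurenine 3-monooxygenase of the outer mitochondrial membrane, lies on chromosome 1 (175620381 to 175662116, plus strand, GRCm38, as are the positions below). WT sham 1, 2 and 3 held 45.4, 43.5 and 41.6 FPKM, while CKO sham 1, 2 and 3 held 30.6, 43.6 and 46.6 FPKM. After IRI it measured 12.9, 14.5 and 14.6 FPKM in the libraries labelled WT IRI 13, 24 and 49, and 28.2, 26.7 and 20.1 FPKM in CKO IRI 7, 15 and 29. Both injured groups lay wholly below their sham groups, and the WT IRI libraries lay wholly below the CKO IRI libraries. The log2 change with IRI was -1.57 in WT (SE 0.19, limma adjusted p = 2.53e-04) and -0.66 in CKO (SE 0.18, limma adjusted p = 0.0477). The WT fall passed under every alternative run for that comparison, with adjusted p from 2.70e-05 to 0.0071.

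The Kmo total joined 2 deposited transcripts, Kmo-201 (175631996 to 175660853) and Kmo-202 (175632180 to 175662116). Kmo-201 (15 exons) made up 96.8% to 98.1% of the total in WT sham and Kmo-202 (14 exons) the rest. In WT IRI 49 and CKO IRI 29, Kmo-202 measured 5.57 and 5.46 FPKM and made up 38.3% and 27.2% of the total. In the other 10 libraries Kmo-202 stayed between 0.83 and 2.71 FPKM. With Kmo-201 alone the CKO fall of Kmo was -0.77 and did not pass (limma adjusted p 0.103).

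Kynu, the kynureninase that removes alanine from hydroxykynurenine, lies on chromosome 2 (43555329 to 43682715, plus strand). WT sham libraries held 27.8, 24.9 and 24.6 FPKM and CKO sham libraries 12.9, 23.3 and 24.5 FPKM. WT IRI libraries held 3.74, 6.20 and 10.998 FPKM and CKO IRI libraries 7.55, 7.03 and 16.0 FPKM. In WT the groups did not overlap and the gene fell by 1.85 on the log2 scale (SE 0.35, limma adjusted p = 0.0030). In CKO, CKO sham 1 (12.9 FPKM) lay below CKO IRI 29 (16.0 FPKM), and the log2 change was -0.96 (SE 0.34, limma adjusted p = 0.111).

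Haao, the dioxygenase that opens the ring of 3-hydroxyanthranilate, lies on chromosome 17 (83831156 to 83847963, minus strand). WT sham libraries held 141, 132 and 133 FPKM, and those of CKO sham 154, 142 and 150 FPKM. After IRI the values were 71.3, 30.6 and 75.4 FPKM in WT IRI 13, 24 and 49, and 71.4, 115 and 49.7 FPKM in CKO IRI 7, 15 and 29. WT IRI 24 and CKO IRI 29 were the lowest libraries of their groups, and neither injured group overlapped its sham group. The log2 change was -1.28 in WT (SE 0.29, limma adjusted p = 0.0064) and -0.99 in CKO (SE 0.28, limma adjusted p = 0.0502).

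Acmsd, which diverts the semialdehyde away from NAD, lies on chromosome 1 (127729413 to 127767978, plus strand). Its 3 WT sham libraries held 116, 96.4 and 106 FPKM and its CKO sham libraries 64.6, 93.6 and 98.2 FPKM. Its WT IRI libraries held 30.8, 46.3 and 49.5 FPKM and its CKO IRI libraries 50.7, 47.4 and 70.6 FPKM. WT groups did not overlap and Acmsd fell by 1.33 on the log2 scale (SE 0.23, limma adjusted p = 0.0018). CKO groups overlapped through CKO sham 1 and CKO IRI 29, and the log2 change was -0.59 (SE 0.22, limma adjusted p = 0.128).

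Promoter sequences were taken from RefSeq (GRCm38.p6), in which 8 of the 10 members were matched, all but Kynu and Naprt. Each runs from 250 bases before the RefSeq start to 50 after it, 5′ to 3′ on the gene's strand. Haao and Kmo are shown as examples of genes that fell in WT IRI, and Nampt because its injured groups lay on opposite sides of sham. Capitals mark AGGTCA, the half-site of many nuclear receptors, and GGGCGG, the GC box, each on either strand. These motifs, and those searched without a match, were chosen after the values were seen. The windows are Haao, chr17:83846741-83847040 (minus); Kmo, chr1:175631943-175632242 (plus); and Nampt, chr12:32820085-32820384 (plus). Kmo-201, the more abundant Kmo transcript, starts at 175631996, near the 5′ end of the Kmo window, so most of that window lies within the transcribed gene.
Haao: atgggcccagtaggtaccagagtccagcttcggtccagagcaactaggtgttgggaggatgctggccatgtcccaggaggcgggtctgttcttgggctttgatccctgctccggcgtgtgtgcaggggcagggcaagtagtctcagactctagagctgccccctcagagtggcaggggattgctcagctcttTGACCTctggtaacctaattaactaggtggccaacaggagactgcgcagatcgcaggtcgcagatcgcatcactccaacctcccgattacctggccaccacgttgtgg
Kmo: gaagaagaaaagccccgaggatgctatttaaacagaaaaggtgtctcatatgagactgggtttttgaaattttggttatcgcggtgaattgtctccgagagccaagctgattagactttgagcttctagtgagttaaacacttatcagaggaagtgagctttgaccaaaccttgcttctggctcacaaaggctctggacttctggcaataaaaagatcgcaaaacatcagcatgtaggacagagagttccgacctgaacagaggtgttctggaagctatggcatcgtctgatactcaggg
Nampt: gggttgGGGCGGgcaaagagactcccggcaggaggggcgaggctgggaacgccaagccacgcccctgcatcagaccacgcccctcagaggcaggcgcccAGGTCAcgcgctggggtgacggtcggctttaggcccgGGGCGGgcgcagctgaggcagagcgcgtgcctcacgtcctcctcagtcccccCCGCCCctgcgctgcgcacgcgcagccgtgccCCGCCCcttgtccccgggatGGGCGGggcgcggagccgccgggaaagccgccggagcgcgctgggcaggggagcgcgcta

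Among the 3 windows shown, AGGTCA was found once in Haao and once in Nampt, and 16.3% of all 32851 RefSeq promoter windows hold it. GGGCGG was found 5 times in Nampt and in neither of the others, and 35.7% of all windows hold it. None of the 3 windows held TATAAA, CAAAGTCCA or the DR1 repeat of the half-site on either strand, beside 13.6%, 0.47% and 0.04% of all windows, which says only that these letters are absent from the windows shown. GC content was 44.3% in Kmo, 58.7% in Haao and 76.3% in Nampt, beside a median of 52.7% over all windows. CG dinucleotides numbered 7, 10 and 36 in the same order, beside a median of 7.

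Qprt, the phosphoribosyltransferase that commits quinolinate to NAD, stood after IRI at 80.5% of its sham mean in WT and at 86.0% in CKO. It lies on chromosome 7 (127107114 to 127122226, minus strand). WT sham libraries held 50.7, 43.7 and 49.9 FPKM and CKO sham libraries 47.3, 46.2 and 48.8 FPKM. In WT IRI 13 and 24 it measured 29.6 and 34.2 FPKM, but in WT IRI 49 it measured 52.5 FPKM, above every sham library. CKO IRI libraries held 39.7, 37.5 and 45.1 FPKM, below every CKO sham library. The log2 change was -0.35 in WT (SE 0.17, limma adjusted p = 0.129), and -0.58 without WT IRI 49 (limma adjusted p 0.0175). The WT fall also passed with trimmed-mean scaling (-0.505, limma adjusted p 0.0322) and with a separate spread for each library (0.0422). In CKO the log2 change was -0.22 (SE 0.16, limma adjusted p = 0.451).

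Afmid, the kynurenine formamidase, could not be read on its own from this table. It lies on chromosome 11 (117825924 to 117839908, plus strand) inside the span of Gm20708 (117809668 to 117839904, plus strand), a predicted coding gene with which its deposited transcripts share 1566 of 3049 exonic bases (51.4%). Among sham kidneys Afmid measured 35.0, 11.2 and 10.3 FPKM (WT) and 4.61, 34.9 and 10.2 FPKM (CKO). Among injured kidneys it measured 5.32, 5.10 and 28.4 FPKM (WT) and 9.46, 30.9 and 24.5 FPKM (CKO). Gm20708 ran the other way in the same libraries, with 0.52, 29.6 and 29.3 FPKM (WT) and 36.7, 0.48 and 36.0 FPKM (CKO) among sham kidneys. Injured kidneys held 21.7, 23.4 and 1.32 FPKM of it (WT) and 29.1, 0.61 and 0.56 FPKM (CKO). In the 5 libraries where Afmid reached 24.5 FPKM or more, which came from all 4 groups, Gm20708 held 1.32 FPKM or less.

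Summed with Gm20708, a reading chosen after the values were seen, the WT locus measured 38.6 ± 2.82 FPKM in sham and 28.4 ± 1.38 after IRI, and the CKO locus 41.0 ± 5.46 and 31.7 ± 6.76. The 3 WT IRI libraries (27.0, 28.5 and 29.7 FPKM) lay below the 3 WT sham libraries (35.5, 40.9 and 39.6 FPKM). The log2 change with IRI was -0.43 in WT (SE 0.17, limma adjusted p = 0.0684) and -0.37 in CKO (SE 0.16, limma adjusted p = 0.188). Afmid alone had changed by -0.71 in WT (SE 0.97) and 0.64 in CKO (SE 0.94), so the sum had a smaller error and turned the direction in CKO.

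**Figure D2:**
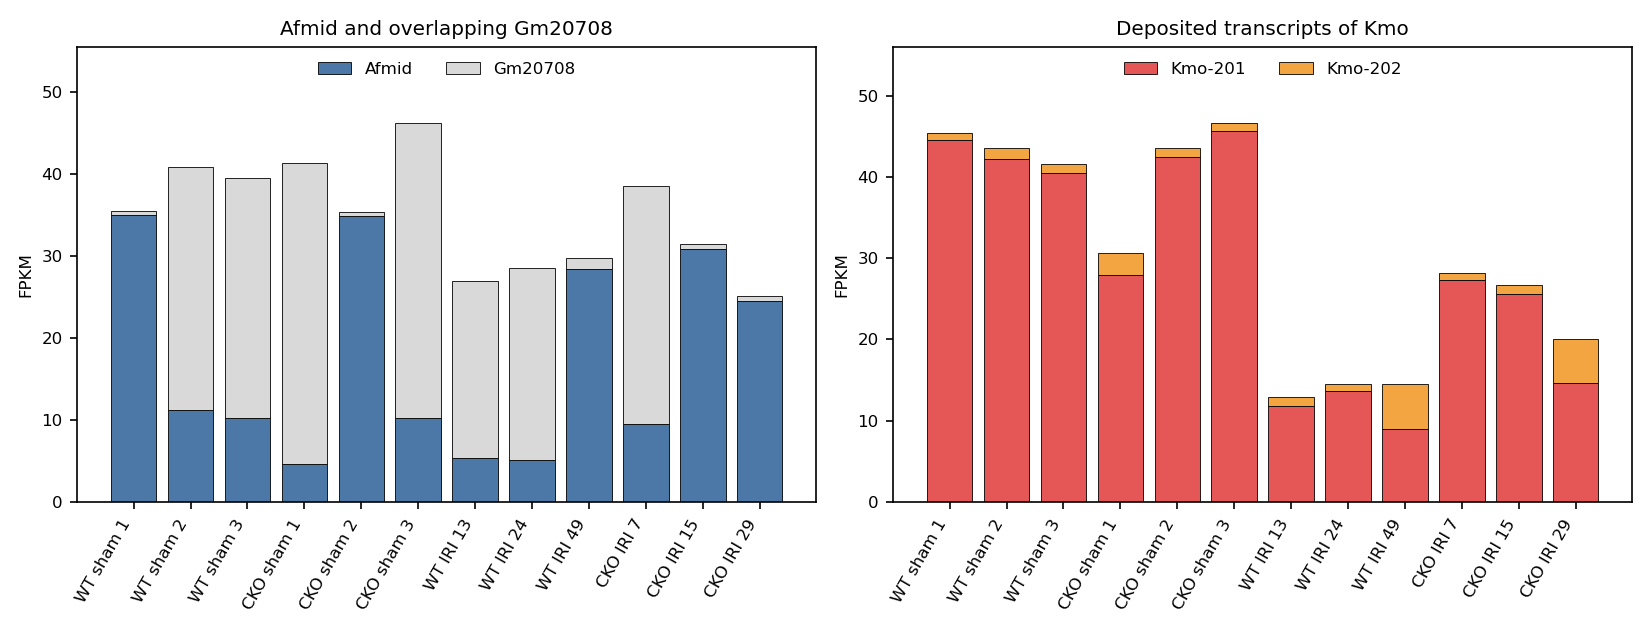
FPKM (vertical axes) in each of the 12 libraries (horizontal axes), stacked for Afmid and Gm20708 on the left and for the 2 transcripts of Kmo on the right. Afmid and Gm20708 exchange places between libraries of the same group while their sum stays between 25.1 and 46.3 FPKM, and Kmo-202 is largest in WT IRI 49 and CKO IRI 29.

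The nicotinate route showed no member past the threshold with IRI in either genotype. Naprt, the nicotinate phosphoribosyltransferase (chromosome 15, 75890956 to 75894481, minus strand), gave 25.4, 27.0 and 26.6 FPKM for the WT sham libraries and 25.8, 23.6 and 26.9 for CKO sham. After IRI it gave 33.3, 23.0 and 32.6 FPKM for the WT libraries and 19.9, 22.7 and 17.96 for the CKO libraries, so CKO IRI lay below all other groups. Its log2 change was 0.15 in WT (SE 0.14, limma adjusted p = 0.423; -0.01 with trimmed-mean scaling) and -0.32 in CKO (SE 0.13, limma adjusted p = 0.155). Naprt shares 277 exonic bases (14.6%) with Eef1d on the same strand, and reads in that stretch cannot be assigned from the table. Nadsyn1, the NAD synthetase (chromosome 7, 143795584 to 143822849, minus strand), lay between 5.55 and 10.1 FPKM in all 12 libraries, with log2 changes of -0.05 in WT and -0.26 in CKO (SE 0.25 and 0.24, limma adjusted p 0.896 and 0.548).

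Nampt, which catalyses the rate-limiting step of nicotinamide salvage, lay on opposite sides of sham in the 2 injured groups. It lies on chromosome 12 (32819545 to 32853349, plus strand). Sham levels were 27.6, 30.3 and 28.2 FPKM in WT and 31.5, 29.8 and 27.9 FPKM in CKO. WT IRI 13, 24 and 49 held 14.4, 21.3 and 26.9 FPKM, each below every sham library. CKO IRI 7, 15 and 29 held 38.1, 36.0 and 34.2 FPKM, each above every sham library. The log2 change was -0.48 in WT (SE 0.16, limma adjusted p = 0.0343) and 0.27 in CKO (SE 0.15, limma adjusted p = 0.307). The WT fall was not called with 1 spread shared by the groups (limma adjusted p 0.0554), with only these groups fitted (0.0975), or without WT sham 2 (0.0634), WT IRI 13 (0.168) or WT IRI 24 (0.120). Without WT IRI 13 the WT change was -0.25.

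Nmrk1, the nicotinamide riboside kinase (chromosome 19, 18631950 to 18652428, plus strand), gave 60.3, 55.5 and 57.3 FPKM for the WT sham libraries and 59.5, 59.3 and 67.4 for CKO sham. WT IRI 13 and 24 held 32.2 and 37.0 FPKM while WT IRI 49 held 65.4 FPKM, and CKO IRI libraries held 45.8, 43.6 and 55.3 FPKM. The log2 change was -0.42 in WT (SE 0.18, limma adjusted p = 0.0960), -0.72 without WT IRI 49 (0.0049), and -0.36 in CKO (SE 0.18, limma adjusted p = 0.239). The WT fall also passed with trimmed-mean scaling (-0.583, limma adjusted p 0.0279) and with a separate spread for each library (0.0258).

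The tubular deletion was compared with WT within each condition. No member was called in sham, where 0.136% of tested genes were (0.0962% lower and 0.0401% higher, 17 of 12469 by limma at an adjusted p under 0.05, and 2214 at an unadjusted p under 0.05). Log2 differences of CKO from WT lay between -0.38 (Kynu and Afmid) and 0.14 (Haao). Haao was higher in every CKO sham library than in any WT sham library and Kynu lower in every one, and 15% and 13.4% of all tested genes did the same. Several of these differences rested on CKO sham 1. Without it Kynu went from -0.38 to -0.10, Acmsd from -0.33 to -0.14, Kmo from -0.13 to 0.05 and Afmid from -0.38 to 0.24, while Haao was 0.11.

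After IRI no member was called either, and 0.016% of tested genes were (0.00802% lower and 0.00802% higher, 2 of 12469 by limma, and 1573 at an unadjusted p under 0.05). Kmo and Nampt were higher in all libraries labelled CKO IRI than in any labelled WT IRI, at 179% and 173% of the WT IRI means, and Naprt was lower in all of them, at 68.1%. Of all tested genes 7.11% were higher and 11.5% lower without overlap in this comparison. The log2 differences were 0.78 for Kmo (SE 0.23, unadjusted p 0.0053), 0.80 for Nampt (SE 0.19, unadjusted p 0.0014) and -0.52 for Naprt (SE 0.16, unadjusted p 0.0088), each with a limma adjusted p of 0.346. The exact permutation p for each was 0.1, the smallest that 3 against 3 libraries allow. With a separate spread for each library, an alternative added later, Kmo and Nampt passed (limma adjusted p 0.0306 each), in a fit that called 402 genes lower and 321 higher in this comparison.

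Whether IRI acted differently in the genotypes was asked with the interaction. It called no member, and 0.016% of tested genes (0.00802% in each direction, 2 by limma, 2204 at an unadjusted p under 0.05). The interaction was 0.91 for Kmo (SE 0.26, limma adjusted p = 0.191) and 0.75 for Nampt (SE 0.22, limma adjusted p = 0.191) on the log2 scale. It was 0.89 for Kynu, 0.74 for Acmsd and -0.47 for Naprt (SE 0.49, 0.32 and 0.19, limma adjusted p 0.360, 0.260 and 0.238). Without CKO sham 1 Kynu was at 0.61 and Acmsd at 0.56, and without WT IRI 49 Kynu was at 1.23 and Nampt at 0.95 (limma adjusted p 0.0679 for Nampt). These 2 comparisons share their IRI libraries and are not independent of each other.

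**Figure D3:**
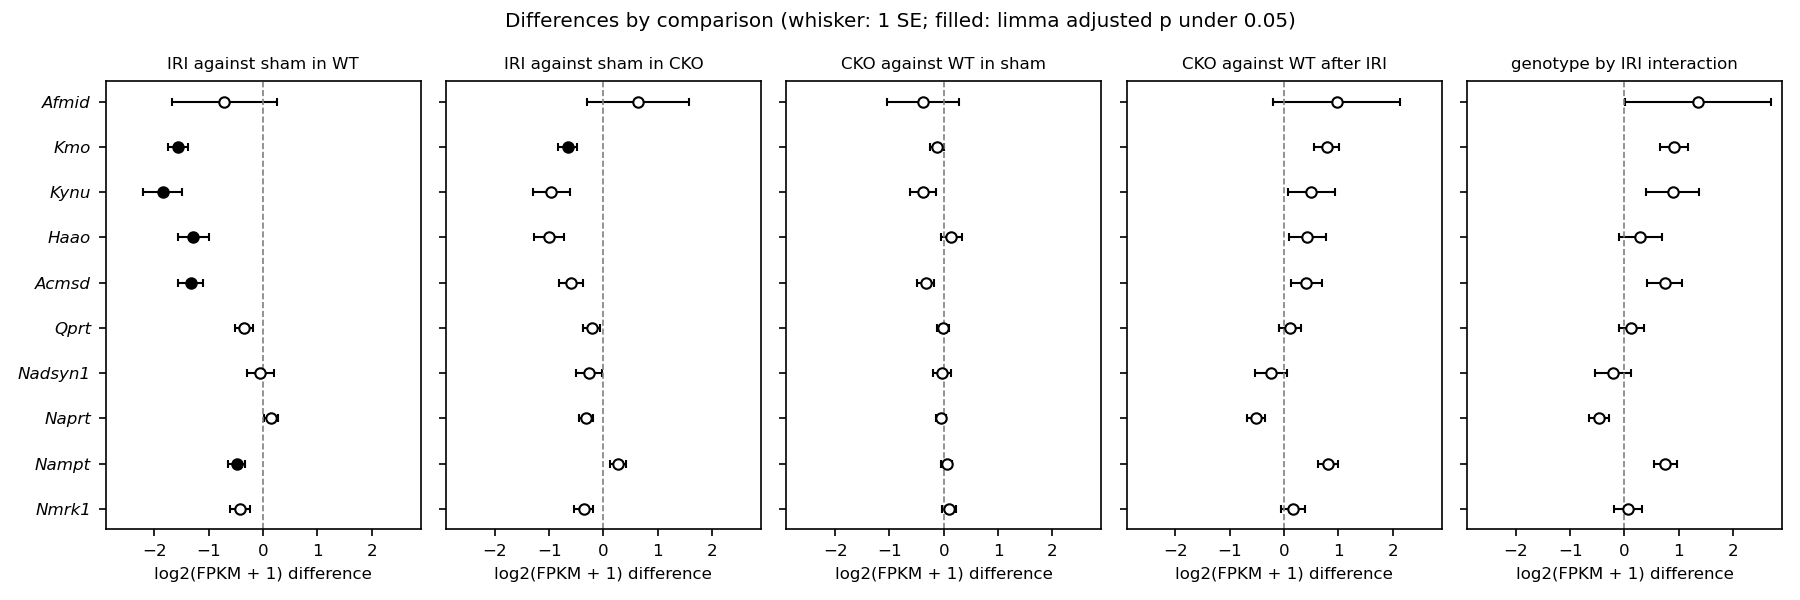
Differences in log2(FPKM + 1) (horizontal axes) for the 10 genes (rows) in the 5 comparisons (panels); points are limma estimates, whiskers 1 SE, and filled points passed an adjusted p of 0.05. Filled points are Kmo, Kynu, Haao, Acmsd and Nampt with IRI in WT and Kmo with IRI in CKO.

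Proximal tubule marker RNA moved in the same direction, and how far it accounts for the member changes was not tested. Its sum, as a percent of the WT sham mean, was 23.3%, 24.1% and 61.8% in WT IRI 13, 24 and 49 and 60.2%, 85.8% and 35.6% in CKO IRI 7, 15 and 29. This sum of FPKM weighs abundant markers most. In CKO sham 1, 2 and 3 it was 119.4%, 107.9% and 103.9%, while the markers' median log2 difference from WT sham was -0.14. By limma 12 of the 13 markers fell in WT (6 without WT IRI 24) and 2 in CKO (1 to 4 when single libraries were left out, and 1 to 7 under the other settings), beside 11.8% and 2.02% of all tested genes. None was called higher in CKO, but 1 was without CKO IRI 29 and 1 with array weights per library. In bulk tissue fewer cells of a type and less RNA per cell cannot be told apart. Members did not track this sum alike. Kmo stood at 29.7%, 33.4% and 33.5% of its WT sham mean in WT IRI 13, 24 and 49, with no rise in WT IRI 49, whereas Qprt stood at 61.5%, 71.0% and 109%. Haao was lowest, within CKO IRI, in the library with the lowest marker sum (CKO IRI 29, 36.8%), where Kynu was highest (62.0%).

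Markers of other cells also moved. The summed level of 12 macrophage and monocyte markers among WT kidneys was 120 to 138 FPKM in sham and 176 to 354 after IRI, and among CKO kidneys 153 to 229 and 185 to 271; Ptprc, of the same list, was not analysed here. The 4 measured neutrophil markers summed to 0.85 to 3.92 FPKM over the sham libraries and 8.73 to 23.2 FPKM over the injured ones. By limma 5 of the 12 macrophage markers rose in WT and 1 in CKO. For these counts and those below, 23.5% of all tested genes rose and 11.8% fell in WT. In CKO 6.6% rose and 2.02% fell, so the CKO macrophage count was near the share of all genes. The 5 fibroblast markers summed to 24.3 to 31.9 FPKM in sham and 73.4 to 255 after IRI among WT kidneys, and to 28.4 to 50.8 and 107 to 152 among CKO kidneys, with 2 called higher in each genotype. The 3 tubular injury markers summed to 6.47 to 16.9 FPKM over the sham libraries and 213 to 916 over the injured ones, and all 3 rose in both genotypes. The 6 endothelial markers summed to 92.5 to 95.7 FPKM in WT sham and 41.7 to 73.0 in injured WT kidneys, and to 104 to 148 and 40.0 to 81.9 among CKO kidneys, and 4 of 6 fell in both genotypes. The part of these cells in the levels of the 10 genes was not tested.

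**Figure D4:**
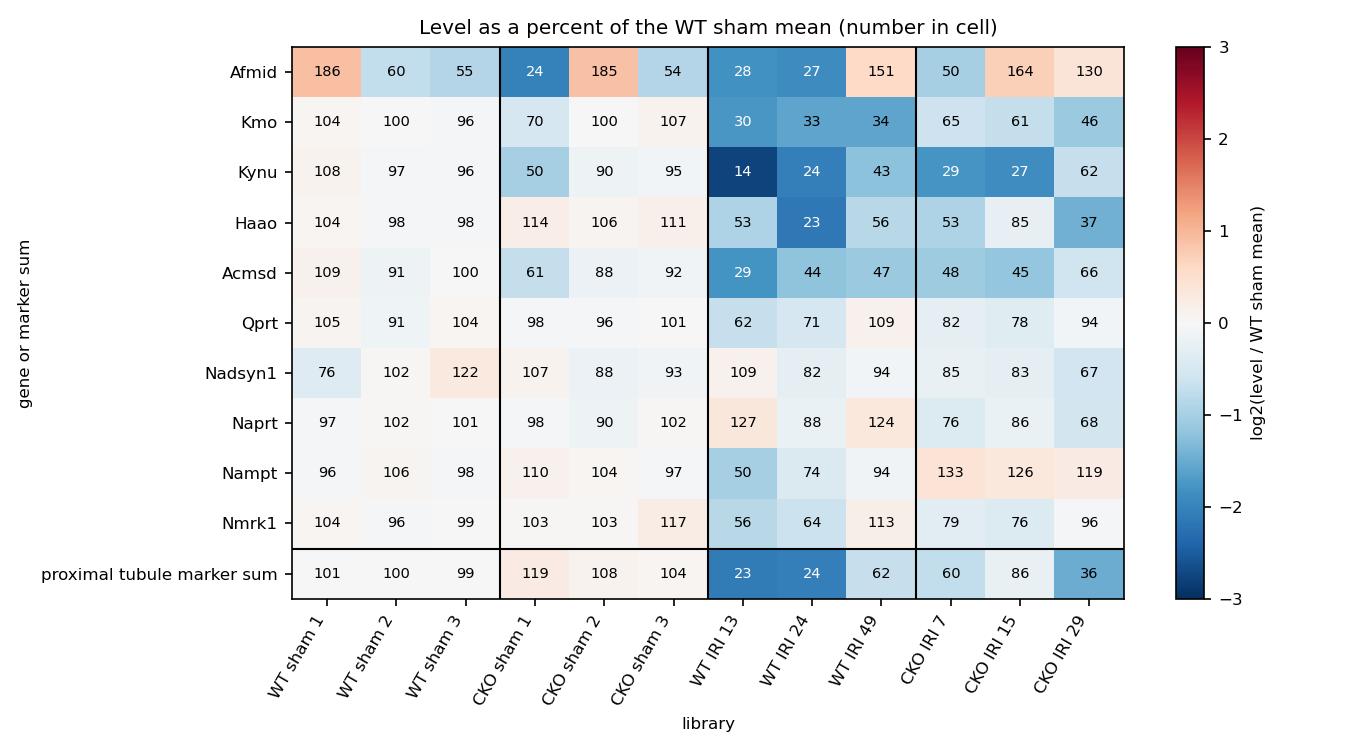
Level of each gene and of the summed proximal tubule markers in each of the 12 libraries (columns) as a percent of the WT sham mean; numbers are percents and colour is log2 of the ratio. In WT IRI 49 Kmo is at 33.5% while Qprt is at 109% and Nmrk1 at 113%.

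Genes around these enzymes were described from lists. In the list for tryptophan entry and kynurenine side branches 8 of 10 genes were tested (Tdo2 and Ido1 were not analysed here). In WT IRI 6 fell and none rose, beside 11.8% and 23.5% of all tested genes, and the median log2 change was -1.21, beside 0.12 over all. In CKO IRI 2 fell, beside 2.02%, with a median of -0.47, beside 0.08. The WT count was 3 without WT IRI 24, and the CKO count ranged from 0 to 4 when single libraries were left out. Aadat and Kyat3 are kynurenine aminotransferases, which make kynurenic acid. Aadat went from 749 ± 116 to 104 ± 135 FPKM in WT (log2 change -3.70, limma adjusted p = 0.0068, or 0.0856 without WT IRI 24). Kyat3 went from 57.1 ± 3.08 to 9.75 ± 7.25 FPKM in WT (-2.63, limma adjusted p = 0.0016) and from 66.5 ± 12.1 to 25.8 ± 17.9 FPKM in CKO (-1.56, limma adjusted p = 0.0479). The enzyme of Aldh8a1 acts on the ACMSD product, and that of Gcdh acts later in the same branch. Aldh8a1 and Gcdh fell by 1.28 and 1.13 on the log2 scale in WT (limma adjusted p 5.88e-04 and 6.98e-04). Gcdh also fell in CKO, by 0.63 (0.0329). The CKO calls of Kyat3 and Gcdh were each lost in 4 of 6 fits that left out 1 library: sham libraries 2 and 3 and injured libraries 7 and 29. The Kyat3 call was also lost under pseudocounts of 0.1 and 0.5, quantile normalization, rescaling, a shared spread, only the compared groups and the most abundant transcript (limma adjusted p 0.051 to 0.109). The Gcdh call was also lost with a shared spread (0.0577) and with only the compared groups (0.0888).

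Among 7 tested transporters of tryptophan, its relatives and nicotinate, 4 fell and 1 rose in WT IRI (1 fell without WT IRI 24), beside 11.8% and 23.5% of all tested genes, with a median log2 change of -1.11. In CKO IRI 1 rose and none fell (0 to 3 fell when single libraries were left out), beside 6.6% and 2.02%, with a median of -0.61. Slc6a19, also on this list, did not pass the 1 FPKM filter and was not tested. Slc22a13, a urate and nicotinate exchanger, went from 102 ± 14.3 to 18.3 ± 26.9 FPKM in WT (log2 change -3.56, limma adjusted p = 0.0081, or 0.0971 without WT IRI 24). Cltrn, the partner protein of apical amino acid transporters, went from 807 ± 9.30 to 386 ± 111 FPKM (-1.11, limma adjusted p = 0.0038). Slc7a8 changed by -1.34 (0.0159), which did not pass without WT IRI 13 (0.0677) or WT IRI 24 (0.0725). Slc7a5, the LAT1 carrier of tryptophan and kynurenine, rose by 1.51 in WT (limma adjusted p = 0.0017) and by 1.09 in CKO (0.0231), from 1.63 ± 0.22 to 6.69 ± 2.01 FPKM and from 1.65 ± 0.31 to 4.88 ± 2.05 FPKM. Its CKO rise was lost without CKO sham library 2 or 3 or injured library 7 or 29 (limma adjusted p 0.0811 to 0.158). With only the compared groups fitted, this rise was lost too (0.0737).

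Of 9 tested genes of later NAD synthesis, phosphorylation, transport and nicotinamide clearance, 1 rose and none fell in WT IRI, and none was called in CKO IRI. That share of rises was below the 23.5% of all tested genes in WT, where 11.8% fell. In CKO 6.6% of all tested genes rose and 2.02% fell. The list's median log2 changes were -0.25 in WT and 0.25 in CKO, beside 0.12 and 0.08 over all tested genes. The riser was Nnmt, which methylates nicotinamide for excretion. It went from 0.32 ± 0.30 to 4.96 ± 3.69 FPKM in WT (log2 change 2.03, limma adjusted p = 0.0023) and from 0.33 ± 0.36 to 2.12 ± 0.39 FPKM in CKO (1.25, limma adjusted p = 0.0544).

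Of 16 tested NAD-consuming enzymes 3 rose and 1 fell in WT IRI, and 1 fell in CKO IRI. In WT these shares were no higher than the 23.5% and 11.8% of all tested genes, and the list's median log2 change of 0.12 was that of all tested genes. In CKO 6.6% of all tested genes rose and 2.02% fell, and the list's median was -0.11, beside 0.08 over all. Sirt3, the mitochondrial deacetylase, fell from 45.5 ± 0.73 to 23.2 ± 5.11 FPKM in WT (log2 change -0.96, limma adjusted p = 0.0035), though not when only its most abundant transcript was read (0.158). Parp14 rose by 0.86 and Sirt6 by 0.71 (limma adjusted p 0.0023 and 0.0073). Sirt6 did not pass without WT IRI 24 (0.0762) or with its most abundant transcript (0.0659). Bst1, a cell-surface cyclase that uses NAD, rose by 2.09 (0.0096), but not without WT IRI 24 (0.0711). Cd38, an NAD glycohydrolase named after its values were seen, changed by -0.81 in CKO (limma adjusted p = 0.0410) and by -0.24 in WT (0.424). The CKO call was lost without the same 4 libraries, each in turn (0.0652 to 0.273). It was also lost with a shared spread (0.0512), only the compared groups (0.119) and the most abundant transcript (0.0628). The counts of rises in WT ranged from 1 to 4 when single libraries were left out.

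Of 9 transcription factors and coactivators of tubular metabolism 4 fell in WT IRI and 1 in CKO IRI (Klf15, -0.60, limma adjusted p = 0.05, lost in 5 of 6 fits without 1 library), and none rose. Klf15 was also lost in CKO under pseudocounts of 0.1 and 0.5 and a 5 FPKM filter (limma adjusted p 0.0501 to 0.0525). The call was lost too with a shared spread (0.0731), only the compared groups (0.0828) and the most abundant transcript (0.695). Over all tested genes 11.8% fell in WT and 2.02% in CKO, and the list's median log2 changes were -0.56 and -0.25. The WT count was 2 or 3 in every fit without 1 library. Hnf4a, a hepatocyte and proximal tubule factor, went from 189 ± 4.37 to 106 ± 22.8 FPKM in WT (log2 change -0.86, limma adjusted p = 0.0045), a fall that held in all 6 fits without 1 library. Klf15 changed by -0.69 (0.0114) and Ppargc1a, the coactivator PGC-1alpha, by -0.49 (0.0366). These calls were lost in 1 and 5 of the 6 fits without 1 library, and Klf15 was also lost with its most abundant transcript (0.788). No gene of these 5 lists was called between the genotypes or for the interaction.

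Genes whose profile over the 12 libraries lay nearest to those of Qprt and Nampt were found by the root mean square difference of log2(FPKM + 1), each gene centred on its mean. For Qprt they were Scamp2 (0.10), Nmrk1 (0.10) and Acpp (0.10), beside a median of 0.41 over 12468 genes. Acpp group means lay between 0.76 and 1.3 FPKM, a level at which adding 1 to the FPKM shrinks log2 differences. Genes picked as nearest lie below the median by that choice, so the median is no test. For Nampt they were Idh3a (0.11), Gnai1 (0.11) and Zkscan1 (0.13), beside a median of 0.49. Idh3a, a subunit of the NAD-dependent isocitrate dehydrogenase, averaged 91.2 FPKM in WT sham and 68.7 in WT IRI, and 92.5 FPKM in CKO sham and 103 in CKO IRI.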

How the data were processed

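The authors deposited 1 table of 25790 mouse transcripts in 12 libraries, read here as FPKM. The header names no unit, and TPM would differ by 1 factor per library. The tools named per the submitters' processing notes are StringTie, HISAT2 2.1.0 and cutadapt. The notes name the human build GRCh38, although the identifiers are mouse; the annotation release and strand setting are not given in the sources used here. The deposited rows all have at least 1 group mean of 0.5 FPKM or more.

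Of the transcripts 25740 matched GENCODE M21 (GRCm38) without version and were summed to 13465 genes; the other 50 held at most 0.10% of any library. The 12469 genes that reached 1 FPKM in 3 or more libraries were tested with limma 3.58.1 in R 4.3.3 on log2(FPKM + 1), a scale that understates changes of low genes, with a mean-variance trend, 1 mean and 1 spread per group (array weights), two-sided, and Benjamini-Hochberg adjustment at 0.05 per comparison. Trimmed-mean factors for 1 alternative were computed on the FPKM values. No interval for counting error is given, since the depth is unknown.

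The members and lists were chosen with earlier results of these data known. Named list genes are at most the 4 called with the smallest p per list; Ido2, Acat1 and Slc5a8 are counted only. The 3 genes nearest to Qprt and to Nampt are named, leaving out predicted, clone and Rik names and the genes of 1 chromosome, which were not analysed here for this purpose. Array weights per library and the sum of Afmid and Gm20708 were chosen after seeing the data. Some items that these rules would name are not reported here.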

Additional observations from a re-analysis of the deposited data

Results flagged for a closer look

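Nampt was the member whose injured libraries lay below sham in WT and above sham in CKO. The 3 libraries labelled WT IRI (14.4 to 26.9 FPKM) lay below the 3 WT sham libraries (27.6 to 30.3 FPKM), and the 3 labelled CKO IRI (34.2 to 38.1 FPKM) lay above the 3 CKO sham libraries (27.9 to 31.5 FPKM). Without overlap, 19.5% of all tested genes lay lower with IRI in WT and 21.4% higher with IRI in CKO. The CKO rise was not called (limma adjusted p 0.307). The WT fall (limma adjusted p 0.0343) was not called under several of the alternatives. The difference between the 2 IRI changes was 0.752 on the log2 scale (SE 0.22, limma unadjusted p 0.0055, adjusted p 0.191), so the interaction itself did not pass the threshold.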

How the results depend on the processing

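The count of members that fell with IRI in WT, 5, ranged from 3 to 7 when single libraries were left out. In CKO that count, 1, ranged from 0 to 4 (4 without CKO sham 1) and was 2 with a filter of 5 FPKM or trimmed-mean scaling. It was 0 with rescaling to equal library sums, only the compared groups or the most abundant transcript, and 6 with array weights per library. Those weights also called 1 member higher with IRI in CKO, 2 higher in CKO after IRI and 2 for the interaction, where the count was otherwise 0. A fit with the replicate block, possible for the sham groups, called 0 members in each direction, as without it. Same-numbered sham libraries had deviation correlations of 0.004, -0.031 and -0.002, and differently numbered ones lay between -0.015 and 0.022. Whether the numbers pair the sham libraries is not stated in the labels, and these values cannot decide it, since no pair known to match was available. No paired analysis was possible for the other comparisons because the groups share no numbers. Directions turned only for members not called, and the cause was not tested. With IRI in WT, Naprt was -0.010 with trimmed-mean scaling and -0.010 with array weights per library, and Nadsyn1 ranged from -0.212 to 0.091 without single libraries. With IRI in CKO, Afmid was -0.473 with array weights per library and -0.371 summed with Gm20708. For genotype in sham, array weights per library gave 0.006 for Kmo and 0.129 for Afmid, the sum with Gm20708 gave 0.077 for Afmid, and rescaling gave -0.020 for Nampt. Without single libraries the sham differences ranged from -0.085 to 0.020 for Qprt, -0.246 to 0.051 for Kmo, -1.103 to 0.235 for Afmid, -0.087 to 0.002 for Naprt and -0.198 to 0.105 for Nadsyn1. Likewise, genotype after IRI ranged from -0.058 to 0.344 for Qprt and -0.037 to 0.463 for Nmrk1. The interaction ranged from -0.039 to 0.363 for Qprt, -0.123 to 0.574 for Haao and -0.139 to 0.361 for Nmrk1, and Nadsyn1 was 0.017 with array weights per library. Counts over all tested genes also moved. With IRI in WT 481 fell and 1359 rose without WT IRI 24. With IRI in CKO the falls ranged from 30 (without CKO IRI 7) to 497 (without CKO sham 1) beside 252, and were 122 with only the compared groups, 147 with the most abundant transcript and 1276 with array weights per library. For genotype in sham, array weights per library called 68 lower and 56 higher, leaving out CKO sham 1 called 53 and 35, and a shared spread or leaving out CKO sham 3 called 0. After IRI and for the interaction, leaving out WT IRI 49 called 15 and 34 and 14 and 25, and array weights per library called 402 and 321 and 494 and 347. The read depth behind each FPKM is unknown, and 3 libraries per group limit every comparison.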
